A study of Mus musculus with 2 samples.

Results

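Alveolar type 1 (AT1) cells were examined in single-cell RNA-seq of whole lung from C57BL/6 mice at 2 weeks of age. One library came from mice kept in room air (21% O2) and one from mice kept in hyperoxia (80% O2) from postnatal day 0 to day 14, a model of bronchopulmonary dysplasia. Each library was made from the pooled lungs of 8 mice, with no genetic change in either group, so the design has 1 sample per group and no test between groups. AT1 cells were chosen by unique molecular identifier (UMI) counts, each UMI standing for 1 captured RNA molecule. A cell had to show 500 genes or more, with mitochondrial UMIs no higher than 20%, no UMI of the leukocyte gene *Ptprc* or of the endothelial gene *Cdh5*, and at least 1 UMI of *Epcam*, *Krt8* or *Krt18*. It also needed a sum of *Ager*, *Hopx*, *Rtkn2* and *Akap5* of at least 6 UMIs that was no smaller than the sum of the alveolar type 2 (AT2) genes *Lamp3*, *Slc34a2*, *Cxcl15* and *Hc*. Cells with 8 or more UMIs of the club cell gene *Cyp2f2*, or with 3 or more UMIs of the ciliated cell genes *Foxj1*, *Tmem212* and *Ccdc153*, were left out. The rule found 166 AT1 cells, 50 in room air and 116 in hyperoxia, among 15520 cells that passed the quality filter and 17457 barcodes in all.

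AT1 cells are large, very thin epithelial cells that cover most of the gas exchange surface of the lung. They share a basement membrane with the capillary endothelium and send signals such as VEGFA to it. They differ from AT2 cells, the cuboidal cells that make surfactant and act as progenitors of AT1 cells after injury. Because AT1 cells are flat and fragile, few of them survive enzymatic dissociation of the lung, and a share of cells in such a suspension is not a share of cells in the tissue.

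The room air library held 4234 barcodes and 39593888 UMIs, and the hyperoxia library held 13223 barcodes and 111934936 UMIs, over 27998 genes. The filter kept 3809 room air and 11711 hyperoxia cells. The libraries shared 17 barcodes, none of them an AT1 cell. The AT1 cells carried 548239 and 1444858 UMIs. The median AT1 cell carried 7566.5 UMIs for room air (876 to 42408) against 10538 for hyperoxia (737 to 44398), and 2668.5 and 3511 detected genes. Levels are given below as UMIs summed over the AT1 cells of a library and scaled to counts per 1000000 UMIs (CPM). At these depths 1 UMI was worth 1.82 CPM in room air against 0.692 CPM in hyperoxia. All intervals are 95% intervals that cover counting error only, not the spread between mice.

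The label was checked on genes that the rule did not use. Across the 31 genes of an AT1 identity list without the rule genes, summed levels were 44973 CPM in room air against 32796 CPM in hyperoxia, and no member was at 0. *Aqp5*, which encodes a water channel of AT1 cells, had a UMI in all 50 room air cells and in 109 of the 116 hyperoxia cells. *Pdpn*, which encodes the AT1 surface protein podoplanin, had one in 47 and 101 cells. In immune cells, which should lack both genes, *Aqp5* had a UMI in 2.08% of room air and 1.5% of hyperoxia cells, and *Pdpn* in 2.45% and 3.24%. Those immune cells had medians of 6191 and 4410.5 UMIs. The sum of the 4 rule genes had its median at 146 UMIs for room air and 148 for hyperoxia, with a lowest value of 14 and of 7. At the edge of the rule, cells with a sum of 6 to 9 numbered 0 in room air and 2 in hyperoxia, and the identity genes made up 0.516% of the UMIs of those 2 cells, none of which had a *Pdpn* or *Aqp5* UMI. Cells with a sum of 10 to 19 numbered 3 and 12 (4.83% and 1.96%), and those with 20 or more numbered 47 and 102 (4.5% and 3.33%). Just outside the rule, cells with a sum of 4 or 5 numbered 1 and 0 (0.474% in the 1 cell), and those with 1 to 3 numbered 5 and 26 (0.179% and 0.317%). The 2 hyperoxia cells at the edge thus had identity levels near those of cells just outside the rule. They held 154 and 21 UMIs of the fibroblast genes *Col1a1*, *Col1a2*, *Col3a1* and *Mfap4*, and they count among the 116 cells.

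The genes that most set these cells apart from the other cells were also those of AT1 cells. Each was ranked by the smaller, over both libraries, of the log2 ratio of its AT1 level to its highest level in AT2, airway, immune, endothelial or stromal cells, with 1 CPM added to each level. Since the cells were picked by their expression, these values are a description. *Spock2*, which encodes a matrix proteoglycan, led with 5.57, followed by the basement membrane collagen *Col4a3* (4.96), the cornified envelope gene *Scel* (4.64), the ligand genes *Wnt3a* (4.62) and *Sema3a* (4.58), and *Pdpn* (4.55). *Igfbp2*, which encodes an insulin-like growth factor binding protein known to mark differentiated AT1 cells, stood at 3.79. Others among the 20 leading genes were the laminin gene *Lama3*, the integrin gene *Itgb6*, the cell cycle inhibitor *Cdkn2b*, the transcription factor gene *Myrf* and the sodium channel subunit *Scnn1g*.

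RNA of other cell types was present in some AT1 cells, and fibroblast genes reached a sum of 6 UMIs in hyperoxia cells alone. The sum of the 4 AT2 genes reached 6 UMIs in 8 of 50 room air cells (16%, 7.17 to 29.1, exact Clopper-Pearson interval) and in 27 of 116 hyperoxia cells (23.3%, 15.9 to 32). The sum of *Col1a1*, *Col1a2*, *Col3a1* and *Mfap4*, genes of fibroblasts, reached 6 in 0 room air cells (up to 7.11%) and in 11 hyperoxia cells (9.48%, 4.83 to 16.3). The haemoglobin genes did so in 0 and 1 cells. These cells were deeper than the rest: the 27 hyperoxia cells with AT2 genes had a median of 23805 UMIs, the 11 with stromal genes one of 18310, and the 80 with none of the 3 sums at 6 one of 6909. In room air the medians were 18868.5 UMIs for the 8 cells with AT2 genes and 6572.5 for the 42 without any of the sums. A neighbour-based doublet score ranked the kept cells, and the highest were marked up to a share fixed in advance at 0.8% per 1000 barcodes. The shares marked, 129 room air cells (3.39%) and 1239 hyperoxia cells (10.6%), thus follow the number of barcodes and are not a measure of doublets. Among AT1 cells 0 of 50 and 12 of 116 were marked under these unequal shares, and 11 of the 12 were among the 36 admixed hyperoxia cells. Whether an admixed cell was a doublet, a cell between AT2 and AT1 states, an AT1 cell with free RNA or a cell of another type that met the rule was not tested. The list medians and the main genes below are therefore also given for the 42 room air and 80 hyperoxia cells without admixture, a choice made after the sums were seen. The limit of 6 is a raw UMI count, so shallow cells with AT2 RNA could stay below it. These cells are without admixture in that sense only.

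**Figure D1:**
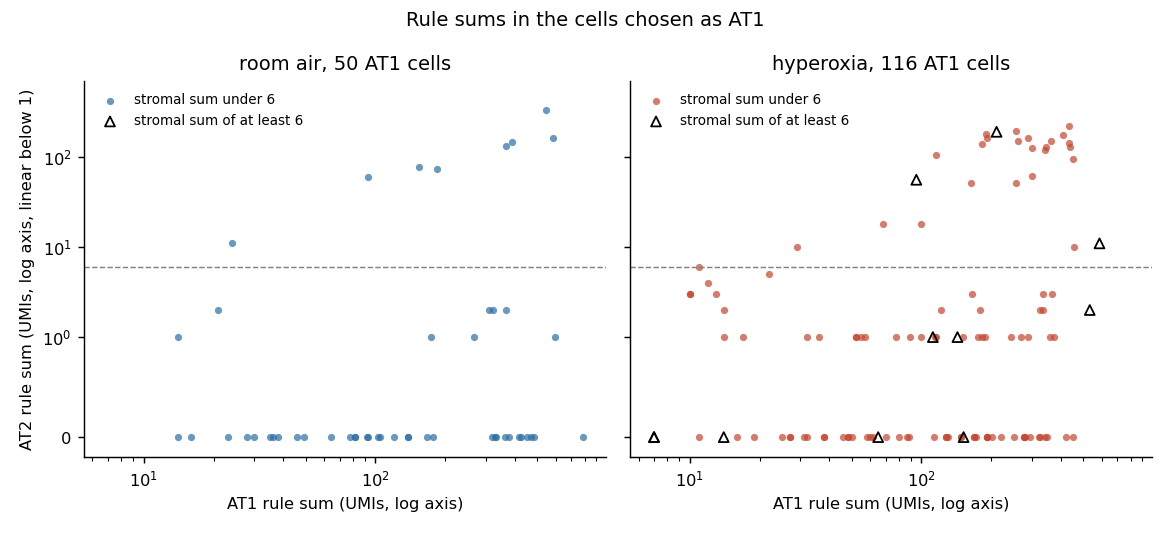
Each point is 1 AT1 cell in room air (left, 50 cells) or hyperoxia (right, 116 cells), with the sum of *Ager*, *Hopx*, *Rtkn2* and *Akap5* in UMIs across (log axis) and the sum of the 4 AT2 genes in UMIs upwards (log axis, linear below 1). The dashed line marks an AT2 sum of 6 UMIs, and open triangles, some of which overlap, mark the 11 cells with a stromal sum of at least 6, all of them in hyperoxia.

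Markers of stromal, erythroid, immune and endothelial cells had higher sums in hyperoxia over all AT1 cells, and those of airway and mesothelial cells lower ones. Summed over 10 stromal marker genes, levels in AT1 cells were 131 CPM in room air against 3040 CPM in hyperoxia, with *Mgp* at 34.7 and 1258 CPM as the gene with most UMIs. Of the 10 genes, 2 were at 0 in room air and none in hyperoxia. With the rule relaxed to a sum of 4, which gave 51 room air cells in place of 50, *Mgp* was lower in hyperoxia instead. The direction of *Mgp* thus rests on where the rule was set. In the cells without admixture the sums of stromal markers were 160 and 259 CPM. Erythroid markers summed to 20.1 and 307 CPM, led by *Hbb-bs*, with 424 UMIs of haemoglobin genes in 1 hyperoxia cell, and to 23.6 and 16.1 CPM without admixed cells. Immune markers summed to 54.7 and 118 CPM over 12 genes, 3 of them at 0 in room air, and endothelial markers to 43.8 and 69.9 CPM over 8 genes, 1 of them at 0 in room air. Airway markers were at 1964 and 1635 CPM, mostly from *Sec14l3*, and mesothelial markers at 1634 and 1054 CPM, mostly from *Bcam*, both of which AT1 cells express themselves. Without admixed cells the immune sums were 70.7 and 194 CPM, the endothelial 52.4 and 83.5, the airway 2124 and 2180, and the mesothelial 1862 and 1330, so that erythroid and airway markers turned direction. Their part in the gene levels below was not tested beyond leaving the admixed cells out. The 19 AT2 and surfactant genes had a median log2 ratio of hyperoxia over room air of 0.22, with 13 higher and 6 lower, and one of 1.23 over 10 genes without admixed cells, all 10 higher. Of all genes with a mean of at least 25 CPM, 44.7% were higher in all AT1 cells and 45% without admixed cells. *Sftpc*, the surfactant protein C gene and the one with most UMIs, was at 32949 and 36298 CPM in all AT1 cells. In the cells without admixture it was at 430 and 3479 CPM (log2 ratio 3.02, 2.79 to 3.26). *Sftpc* also had a UMI in 86.3% of room air and 94.1% of hyperoxia immune cells, at 312 and 1558 CPM, so *Sftpc* UMIs were found in cells that should lack the gene in both libraries, at a higher level in hyperoxia.

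AT1 cells made up 1.31% of the kept cells in room air (0.976 to 1.73, 50 of 3809) and 0.991% in hyperoxia (0.819 to 1.19, 116 of 11711). The difference of -0.32 percentage points had an interval from -0.77 to 0.07, so it was within counting error. Leaving out admixed cells took 8 of 50 room air and 36 of 116 hyperoxia AT1 cells from the count. The denominators stayed at all 3809 and 11711 kept cells, to which this filter was not applied. The shares were then 1.1% and 0.683%, and the difference of -0.42 points had an interval from -0.83 to -0.07, which lay below 0. When the rule was applied to cells thinned to 2000 UMIs, with a sum of at least 2, they were 1.08% and 0.912%. Epithelial cells were taken as kept cells with no *Ptprc* or *Cdh5* UMI and at least 1 UMI of *Epcam*, *Krt8* or *Krt18*. Among these alone, AT1 cells were 20.9% in room air (15.9 to 26.6, 50 of 239) and 11% in hyperoxia (9.15 to 13.0, 116 of 1057), a difference of -9.95 points (-15.9 to -4.57). AT2 cells were 62.8% and 69.2% of them and airway cells 9.62% and 8.7%, and the rest fell in none of these classes. There were 0.333 AT1 cells per AT2 cell in room air and 0.159 in hyperoxia. AT2 cells numbered 150 and 731, or 3.94% and 6.24% of the kept cells. With 1 pool of mice per group, survival of the dissociation and the make-up of the lung cannot be told apart in these shares.

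Across all genes the log2 ratios of AT1 cells were centred near 0, where scaling to CPM tends to hold them. Among 5310 genes with a mean level of at least 25 CPM, the log2 ratio of hyperoxia to room air had a median of -0.05. Without its sign, the log2 ratio had a median of 0.29 in AT1 cells. The same value was 0.29 in airway, 0.22 in AT2, 0.22 in endothelial, 0.18 in stromal and 0.16 in immune cells, and the classes differed in UMIs. At least 2-fold higher levels in hyperoxia were found for 168 genes (3.16%) and at least 2-fold lower levels for 122 genes (2.3%). Without the admixed cells 158 of 5277 genes (2.99%) were higher and 199 (3.77%) were lower, with the same median. The share of higher genes among those past 2-fold was 57.9% for all AT1 cells, 44.3% without the admixed cells, 68.8% with mitochondrial, ribosomal and haemoglobin genes left out of the total, and 45.5% for means over single cells. These counts rest on 1 library per group and are the background for the gene groups below.

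Most genes of AT1 identity had lower levels in hyperoxia, by less without the admixed cells, where the median was not clear of 0. Of the 31 members 30 passed the limit on level, and 25 of these were lower and 5 higher. The median log2 ratio was -0.41, with a spread of the median over genes from -0.51 to -0.20. Only *Igfbp2* was past 2-fold, 1 of 30 against the 2.3% of all genes. The counting interval lay below 0 for 22 members and above 0 for 2. Of all 5310 genes, 55.3% were lower, 13.9% had an interval below 0 and 9.51% one above 0, but intervals are narrower for genes with more UMIs. Without the admixed cells the median was -0.17, with a spread over genes from -0.24 to 0.07, which included 0. There 19 members were lower and 11 higher, where 55% of all genes were lower. Of their intervals 13 lay below 0 and 5 above, against 10.1% and 6.39% of all genes, with *Igfbp2* again the only one past 2-fold. In AT2 cells the same list had a median of 0.05 over 19 members, where all 4463 genes tested had a median of 0.04.

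*Igfbp2* (ENSMUSG00000039323, chr1:72824503-72852474, plus strand, GRCm38) had the largest difference of the identity genes. Its level was 2585 CPM (1417 UMIs) in room air against 864 CPM (1249 UMIs) in hyperoxia, a log2 ratio of -1.58 (-1.69 to -1.47). Per 10000 UMIs of a cell, the lowest, median and highest values were 0, 21.2 and 119 in room air and 0, 5.57 and 47.5 in hyperoxia. The ranges overlapped, and 1 of 50 room air cells against 26 of 116 hyperoxia cells had no *Igfbp2* UMI. The difference remained in the cells without admixture, at 3051 and 1211 CPM (log2 ratio -1.33, -1.47 to -1.2).

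*Pdpn* (ENSMUSG00000028583, chr4:143267431-143299564, minus strand) was lower as well, at 963 CPM (528 UMIs) in room air against 491 CPM (709 UMIs) in hyperoxia (log2 ratio -0.97, -1.14 to -0.81). Its values per 10000 UMIs had a median of 8.66 (0 to 21.1) in room air against 5.02 (0 to 27.1) in hyperoxia. The highest cell was thus in hyperoxia while the median was lower there, and without admixed cells the log2 ratio was -0.69 (-0.89 to -0.50). When each cell was thinned to 2000 UMIs, which left out 9 room air and 17 hyperoxia cells, *Igfbp2* was found in 87.8% of room air and 54.5% of hyperoxia AT1 cells, and *Pdpn* in 90.2% and 53.5%. Without admixed cells the thinned shares were 87.9% and 64.1% for *Igfbp2* and 81.8% and 62.5% for *Pdpn*. Unthinned, the shares in all AT1 cells were 98.0% and 77.6% for *Igfbp2* and 94.0% and 87.1% for *Pdpn*. In thinned immune cells, which should lack both genes, *Igfbp2* was found in 0.809% and 0.999% and *Pdpn* in 0.566% and 0.911%, at median depths before thinning of 6684.5 and 4951 UMIs against 10866 and 12905 in AT1 cells.

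Other identity genes had smaller differences. *S100a6*, which encodes a calcium-binding protein, was at 5058 and 2714 CPM (log2 ratio -0.90, -0.97 to -0.83), with medians of 51.1 (14.1 to 232) and 24.3 (0 to 130) per 10000 UMIs. *Icam1*, the adhesion molecule to which leukocytes bind, was at 994 and 587 CPM (-0.76). Without admixed cells these log2 ratios were -0.78 and -0.51. *Aqp5* was at 1817 and 1276 CPM (-0.51), the tight junction gene *Cldn18* at 5549 and 3757 CPM (-0.56), and *Emp2* and *Clic5* also had intervals below 0. All 4 intervals were below 0 without admixed cells too, at log2 ratios of -0.25, -0.32, -0.22 and -0.24. Levels of *Cav1*, the main protein of caveolae, and *Prdx6*, a peroxiredoxin, were higher in hyperoxia instead. *Cav1* was at 593 and 763 CPM (0.36, 0.19 to 0.55), and *Prdx6* at 1824 and 2406 CPM (0.40, 0.30 to 0.50). Both log2 ratios were 0.68 without the admixed cells.

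Of the 4 AT1 genes that chose the cells, *Ager*, the receptor for advanced glycation end products, was at 13802 CPM in room air against 8754 CPM in hyperoxia, a log2 ratio of -0.66. Its median per 10000 UMIs was 142 (53.9 to 263) in room air against 100.1 (5.01 to 190) in hyperoxia. *Hopx*, which encodes a homeodomain protein, had a log2 ratio of -0.14, *Rtkn2* one of -0.09 and *Akap5* one of -0.50. Without admixed cells these were -0.39, 0.07, 0.26 and -0.26. These values describe the selection and support nothing further.

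**Figure D2:**
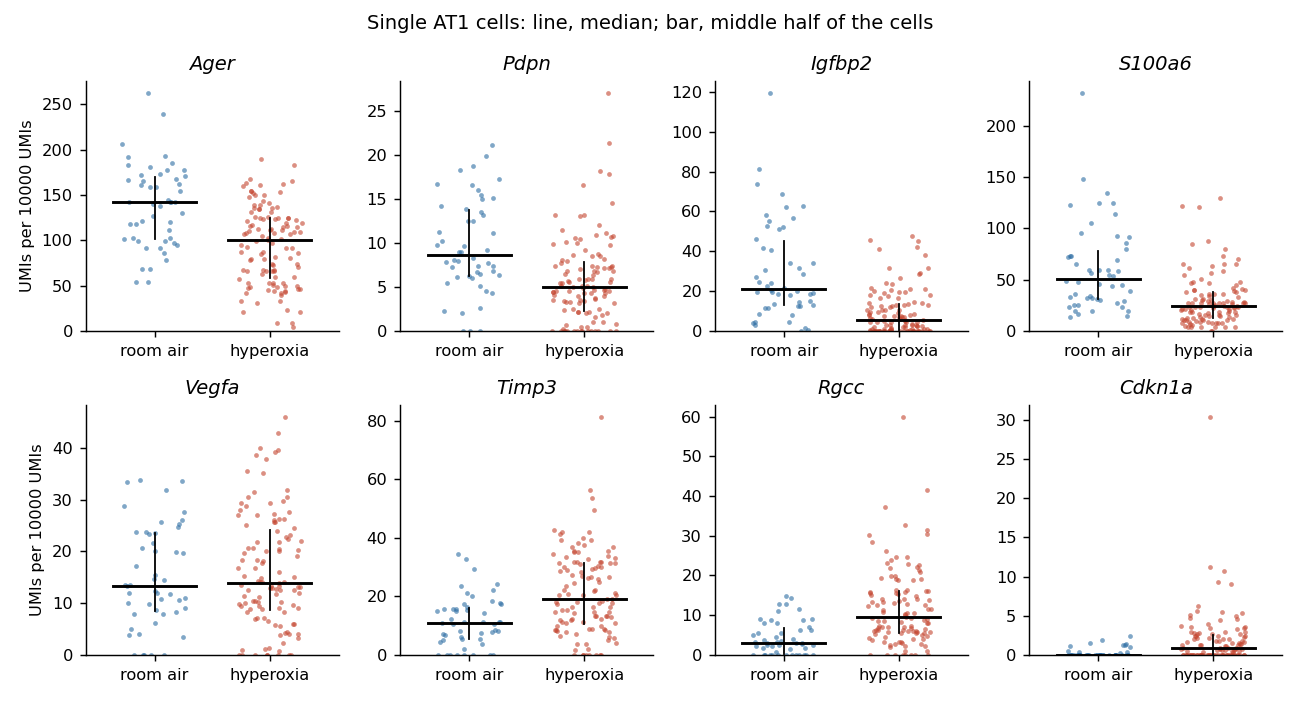
Each point is 1 AT1 cell (50 in room air, 116 in hyperoxia), the vertical axis gives UMIs of the gene per 10000 UMIs of the cell, the horizontal line is the median and the vertical bar runs from the lower to the upper quartile. The median of *Igfbp2* is 21.2 in room air and 5.57 in hyperoxia, and that of *Rgcc* is 3.01 and 9.48, while the ranges of both overlap.

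The promoters of *Igfbp2* and *Pdpn*, and of *Cdkn1a*, which is described below, are shown because their values per cell are described in full here. Each sequence holds the 250 bases before the RefSeq start site (GRCm38.p6), 5′ to 3′ on the strand of the gene, for *Igfbp2* at chr1:72824230-72824479 (plus strand), for *Pdpn* at chr4:143299565-143299814 (minus strand) and for *Cdkn1a* at chr17:29090729-29090978 (plus strand). Capitals mark matches to the p53 decamer.
Igfbp2: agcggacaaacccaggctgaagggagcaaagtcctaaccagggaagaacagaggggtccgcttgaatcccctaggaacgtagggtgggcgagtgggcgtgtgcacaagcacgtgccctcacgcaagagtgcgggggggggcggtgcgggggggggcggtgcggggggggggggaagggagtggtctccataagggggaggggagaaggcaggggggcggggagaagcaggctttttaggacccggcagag
Pdpn: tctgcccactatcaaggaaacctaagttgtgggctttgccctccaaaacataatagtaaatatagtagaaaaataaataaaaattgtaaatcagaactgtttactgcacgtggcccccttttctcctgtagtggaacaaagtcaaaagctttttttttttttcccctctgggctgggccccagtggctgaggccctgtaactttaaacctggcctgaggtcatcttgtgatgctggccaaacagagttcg
Cdkn1a: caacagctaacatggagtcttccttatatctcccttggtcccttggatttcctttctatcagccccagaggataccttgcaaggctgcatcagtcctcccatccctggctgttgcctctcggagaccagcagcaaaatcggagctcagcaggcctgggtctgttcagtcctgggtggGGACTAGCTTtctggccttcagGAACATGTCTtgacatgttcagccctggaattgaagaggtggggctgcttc
Of 5 motifs searched on both strands, the p53 decamer matched in *Cdkn1a*, at bases 73 to 64 and 51 to 42 before the start, and it occurs in 7.18% of 27025 promoter windows of this length. GGAATG (TEAD factors, 12.6% of windows), CAAGTG (NKX2-1, 11.6%), TGANTCA (AP-1, 6.87%) and TGACNNNGC (the antioxidant response element, 10.1%) had no match in the 3 windows. These matches describe letters only, since binding was not measured.

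Most ligand genes, through which AT1 cells signal to endothelial, mesenchymal and immune cells, had lower levels in all AT1 cells, and fewer did without admixed cells. Of the 32 listed ligand genes 18 passed the limit on level, and 17 of them were lower in hyperoxia, where 55.3% of all genes were lower. Their median log2 ratio was -0.64, with a spread of the median over genes from -0.96 to -0.35, against -0.05 for all genes. Of the 18 ligand genes, 4 were at least 2-fold lower and 0 at least 2-fold higher, against 2.3% and 3.16% of all genes, and the counting interval lay below 0 for 13, against 13.9% of all genes. Without admixed cells the median was -0.24, with a spread over genes from -0.83 to 0.03, which included 0. There 12 of 17 were lower, 3 at least 2-fold lower, with 5 intervals below 0 and 1 above. The shares of all genes in those cells were 55%, 3.77%, 10.1% and 6.39%.

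*Csf1*, the growth factor of macrophages, was at 73.0 CPM (40 UMIs) in room air against 10.4 CPM (15 UMIs) in hyperoxia, a log2 ratio of -2.81 (-3.78 to -1.93). It was found in 13 of 50 and 11 of 116 cells, and 1 room air cell held 50% of the room air UMIs. With the cell of most *Csf1* UMIs left out in each library the log2 ratio was -2.17, and without admixed cells it was -3.88 on 36 and 4 UMIs. *Bmp4*, a bone morphogenetic protein, was at 130 CPM (71 UMIs) and 48.4 CPM (70 UMIs), a log2 ratio of -1.42 (-1.92 to -0.92), and at -1.53 without admixed cells. No cell held more than 9.86% of its UMIs in room air. *Sema3f*, a semaphorin, was at 54.7 and 24.2 CPM (-1.18), and *Fgf18*, a fibroblast growth factor, at 89.4 and 43.6 CPM (-1.04, -1.60 to -0.47). Without admixed cells these were at -0.83 (-1.71 to 0.05) and -1.02 (-1.73 to -0.32).

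The ligand with most UMIs did not follow them. *Vegfa*, the vascular endothelial growth factor, was at 1612 CPM (884 UMIs) in room air against 1498 CPM (2165 UMIs) in hyperoxia, with an interval of the log2 ratio from -0.22 to 0.01, and at 0.15 (0.02 to 0.28) without admixed cells. It had a UMI in 45 of 50 and 108 of 116 AT1 cells, with medians of 13.3 and 14 per 10000 UMIs. *Pdgfa*, the platelet-derived growth factor that signals to alveolar myofibroblasts, was at 1056 and 800.1 CPM (-0.40, -0.55 to -0.25), and at -0.14 (-0.32 to 0.03) without admixed cells. The axon guidance ligand *Sema3e* was at 928 and 702 CPM, with an interval from -0.56 to -0.25, and one from -0.33 to 0.04 without admixed cells.

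**Figure D3:**
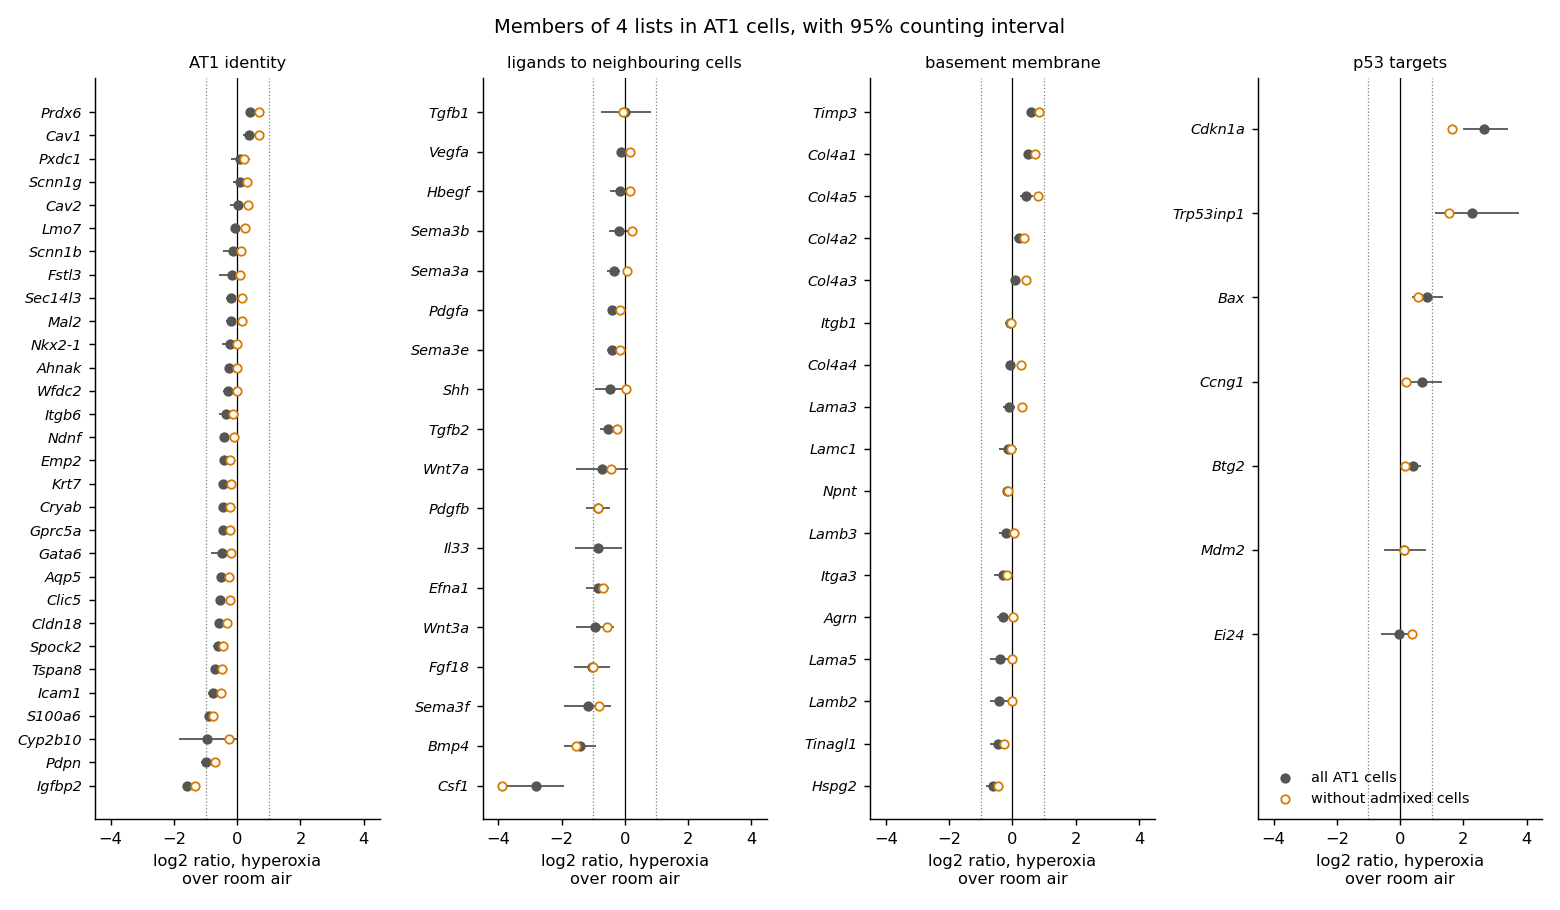
Log2 ratio of hyperoxia over room air in AT1 cells for the members reported of 4 lists, with a mean level of at least 25 CPM, for all AT1 cells (filled, with 95% counting intervals) and without admixed cells (open). Dotted lines mark 2-fold, and 17 of the 18 ligand points for all AT1 cells lie at or below 0 while 6 of the 7 p53 target points lie above it.

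Basement membrane genes showed no common direction. Of the 18 members tested 13 were lower and 5 higher, where 55.3% of all genes were lower. Their median log2 ratio was -0.13 with none past 2-fold, and without admixed cells the median was 0.06. The matrix metalloproteinase inhibitor *Timp3* was higher in hyperoxia, at 1366 CPM (749 UMIs) and 2039 CPM (2946 UMIs), a log2 ratio of 0.58 (0.46 to 0.70). Its median per 10000 UMIs was 11 (0 to 34.6) in room air against 19 (0 to 81.4) in hyperoxia. The collagen IV genes *Col4a1* (0.49, 0.35 to 0.62) and *Col4a5* (0.44, 0.25 to 0.64) were higher too, and all 3 log2 ratios were larger without admixed cells (0.84, 0.73 and 0.82). For *Col4a3* and *Col4a4*, whose products form a network of the alveolar and glomerular basement membranes, the intervals were -0.05 to 0.19 and -0.18 to 0.02, and without admixed cells they were 0.30 to 0.58 and 0.15 to 0.39. *Hspg2*, which encodes perlecan, was lower (-0.62, -0.83 to -0.41; -0.45 without admixed cells).

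Receptor, junction, transport and Hippo pathway genes held few members past 2-fold, where 3.16% of all genes were at least 2-fold higher and 2.3% lower. Among 18 receptor genes none was past 2-fold, with a median log2 ratio of -0.24 (-0.05 without admixed cells). The growth factor receptors *Fgfr2* (67.5 and 85.1 CPM) and *Egfr* (94.8 and 81.0 CPM) had intervals that included 0. Junction genes had a median of -0.31 over 16 members, which was -0.20 without admixed cells and 0.0048 for means over single cells, and the junction adhesion gene *Esam* was the one past 2-fold (217 and 89.3 CPM, -1.28, -1.65 to -0.91; -1.24 without admixed cells). Ion and water transport genes had a median of -0.11 over 12 members (-0.07 without admixed cells). *Atp1b1*, the beta subunit of the sodium pump that drives fluid clearance, was at 241 and 505 CPM (1.07, 0.80 to 1.35), and at 1.51 without admixed cells. The targets of YAP and TAZ, the effectors of the Hippo pathway that keep AT1 identity, had a median of -0.23 over 16 members, with *Amotl2* past 2-fold (266 and 126 CPM, -1.08, -1.40 to -0.76). Without admixed cells that median was -0.21 and *Amotl2* was at -1.01.

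Some targets of p53, the factor induced by DNA damage, were higher in hyperoxia. Of the 20 genes listed 7 passed the limit, 6 of them higher and 1 lower, with a median log2 ratio of 0.70. The interval lay above 0 for 5, against 9.51% of all genes, and 2 were at least 2-fold higher against 3.16% of all genes. *Cdkn1a* (ENSMUSG00000023067, chr17:29090976-29100727, plus strand), which encodes the cell cycle inhibitor p21, was at 34.7 CPM (19 UMIs) in room air against 218 CPM (315 UMIs) in hyperoxia, a log2 ratio of 2.65 (1.99 to 3.40). Its median per 10000 UMIs was 0 (0 to 2.46) in room air against 0.85 (0 to 30.4) in hyperoxia. The ranges overlapped, and 45 of the 116 hyperoxia cells had no *Cdkn1a* UMI. The highest cell was an admixed one, and the median of the 80 hyperoxia cells without admixture was 0, as in room air. Without admixed cells the levels were 41.9 CPM (16 UMIs) and 130.1 CPM (81 UMIs), a log2 ratio of 1.63 (0.85 to 2.51). With the rule relaxed to a sum of 4, which admitted 1 more room air cell of 34143 UMIs, the log2 ratio was 0.92, so this value rests on where the rule was set. *Trp53inp1*, a p53-induced gene, was at 10.9 and 53.3 CPM (2.28, 1.10 to 3.77; 6 and 77 UMIs), and the pro-apoptotic *Bax* at 78.4 and 141.9 CPM (0.86, 0.38 to 1.37). *Ccng1* was at 54.7 and 88.6 CPM, and *Mdm2*, the inhibitor of p53, at 49.2 and 54.0 CPM with an interval from -0.52 to 0.82. In the cells without admixture 7 members were tested, the interval lay above 0 for *Cdkn1a* alone, which was also the one tested member past 2-fold, and the median was 0.29. There *Trp53inp1*, under the limit on level and so not among those tested, was at 1.54 (-0.05 to 3.56), and *Bax* was at 0.57 (-0.08 to 1.26). AT2 cells had *Cdkn1a* at 37.8 and 355 CPM (3.23, 2.93 to 3.55) and a median of 1.56 over 10 members, 6 of them at least 2-fold higher, against 1.01% of all genes tested in AT2 cells.

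Genes of the transitional state between AT2 and AT1 cells, which is marked by keratin 8 and p53 activity after injury, differed in direction among themselves. Of 26 members 17 were tested, with a median log2 ratio of 0.01 (0.12 without admixed cells). At least 2-fold higher were 4 of them, among them *Cdkn1a*, against 3.16% of all genes. *Krt8* was at 430 and 311 CPM (-0.47, -0.70 to -0.24) and *Krt19* at 482 and 267 CPM (-0.85, -1.08 to -0.62), and without admixed cells they were at -0.40 and -0.66. *Krt8* is also one of the 3 epithelial genes by which the cells were chosen, so its value is a description. *Cldn4*, a marker of that state, had 2 and 1 UMIs in all. *Clu*, which encodes the chaperone clusterin, was at 16.4 and 65.1 CPM (1.99, 1.0 to 3.16), *Lcn2*, which encodes lipocalin 2, at 106 and 245 CPM (1.21), and *Fn1*, the fibronectin gene, at 12.8 and 304 CPM (4.57). Without admixed cells *Fn1* was at 13.1 and 38.6 CPM (1.56), while *Clu* was at 2.46 on 4 and 36 UMIs and *Lcn2* on 2 and 18 UMIs. Fibroblasts also express *Fn1*, and AT2 cells held *Lcn2* at 1102 and 1894 CPM.

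Antioxidant genes of the NRF2 response differed between all AT1 cells and those without admixture. Of 18 members tested in all AT1 cells 4 were at least 2-fold higher (*Gclc*, *Gstm1*, *Mt1* and *Gsta4*), against 3.16% of all genes. The median log2 ratio of the 18 members was 0.18. When the rule was applied to thinned cells, *Gstm1*, *Mt1* and *Gsta4* were lower in hyperoxia instead. *Gclc*, the catalytic subunit of glutathione synthesis, was at 27.4 CPM (15 UMIs) and 129 CPM (186 UMIs), a log2 ratio of 2.23, and at -0.07 on 9 and 14 UMIs without admixed cells. *Gstm1*, *Mt1* and *Gsta4* fell under the limit on level there, on 2 and 11, 0 and 8, and 1 and 16 UMIs. In those cells none of 14 members was past 2-fold and the median was -0.14. AT2 cells, in which 18 of 19 members were higher against 54% of all genes tested there, held *Gclc* at 221 and 431 CPM. The NRF2 target *Nqo1* had 0 and 2 UMIs in AT1 cells. HIF targets and glycolysis genes had a median of 0.05 over 13 members (0.11 without admixed cells) with none past 2-fold, and genes of the integrated stress and unfolded protein responses one of -0.21 over 13, again with none past 2-fold. Without admixed cells the latter median was -0.38, with 11 of 13 lower, and *Ddit3*, *Atf3* and *Pdia4* of that list were at least 2-fold lower (-1.09, -1.35 and -1.11). Of all genes in those cells 55% were lower and 3.77% at least 2-fold lower.

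Genes of interferon and antigen presentation differed in direction among themselves. Of 16 members tested 7 were higher and 9 lower in hyperoxia, against 44.7% and 55.3% of all genes. The median log2 ratio was -0.16, and -0.23 without admixed cells. In all AT1 cells 3 intervals lay above 0 and 6 below, against 9.51% and 13.9% of all genes. At least 2-fold lower were 3 members, all of them interferon-induced, against 2.3% of all genes. *Isg15*, a ubiquitin-like modifier, was at 51.1 CPM (28 UMIs) and 8.31 CPM (12 UMIs), a log2 ratio of -2.62 (-3.73 to -1.60), with 32.1% of the room air UMIs in 1 cell. *Oasl2* was at 43.8 and 12.5 CPM (-1.81, -2.78 to -0.87) and *Ifit1* at 67.5 and 33.2 CPM (-1.02, -1.67 to -0.36). Without admixed cells *Isg15* was at -3.35 (25 and 4 UMIs), *Oasl2* at -1.71 (-2.96 to -0.54) and *Ifit1* at -0.60 (-1.41 to 0.21). The MHC class I light chain *B2m* was at 378 and 630 CPM (0.74, 0.52 to 0.96), and *Cd74*, the MHC class II invariant chain, at 606 and 963 CPM (0.67, 0.50 to 0.85), while *H2-D1*, an MHC class I heavy chain, had an interval below 0 (-0.36, -0.53 to -0.18). Without admixed cells *B2m* (1.11) and *Cd74* (1.2) were past 2-fold, and so was the class II gene *H2-Aa* on 2 and 31 UMIs (3.25, 1.27 to 6.36). The immune markers, higher in sum in the same cells, included *S100a8* (4 and 25 UMIs) and *S100a9* (6 and 53 UMIs), both past 2-fold there, and their part in the MHC values was not tested. The part of AT2 RNA left in those cells was not tested either. *Ifitm3*, an antiviral membrane protein gene, had a log2 ratio of 1.44 in all AT1 cells and -0.12 without admixed cells. In AT2 cells all 12 members tested were lower, against 46% of all genes tested there, with a median of -0.80, among them *Cd74* (-0.82) and *B2m* (-0.15). Of the inflammation list 5 members passed the limit, with *S100a9* and *Lcn2* at least 2-fold higher, against 3.16% of all genes, and the other 3 lower.

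Immediate early genes, which respond to enzymatic dissociation as well as to injury, differed in direction. All 18 listed genes were tested, with a median log2 ratio of 0.09 that was -0.31 without admixed cells. In all AT1 cells 3 were at least 2-fold higher, against 3.16% of all genes. They were *Egr1* (83.9 and 329 CPM, 1.97, 1.53 to 2.44), *Ier2* (36.5 and 109 CPM, 1.58) and *Fos* (177 and 456 CPM, 1.37). When the rule was applied to thinned cells, *Ier2* was lower in hyperoxia instead. Without admixed cells *Egr1* alone was past 2-fold upwards (1.11), against 2.99% of all genes there. At least 2-fold lower were 5 genes, against 3.77% of all genes there, namely the heat shock genes *Hspa1a* (-1.55) and *Hspb1* (-1.22) and the transcription factor genes *Nr4a1* (-1.44), *Atf3* (-1.35) and *Klf2* (-1.15). Both pools of lungs were digested by 1 protocol, and the part of handling in these values was not tested.

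Beyond the lists, the 15 highest and 15 lowest genes were taken by the end of the interval nearest 0, among 1453 genes with at least 50 CPM that were not higher in immune, endothelial or stromal cells. They were ranked in all AT1 cells, of which the cells without admixture are a part, so agreement between the 2 sets is a description. Of the 15 lowest, 13 had intervals below 0 without admixed cells as well, against 10.1% of all genes. Besides *Igfbp2* they included *Batf*, an AP-1 family factor (96.7 and 24.9 CPM, -1.96, -2.61 to -1.32), *Spry1*, an inhibitor of FGF signalling (319 and 123 CPM, -1.38, -1.69 to -1.07), and *Msln*, which encodes mesothelin (130 and 43.6 CPM, -1.57, -2.08 to -1.06). Without admixed cells these 3 were at -2.17, -1.34 and -1.41. They also included *Rassf7* (-1.45), *Smim22* (-1.42), *Mfge8* (-1.07), and *2210011C24Rik* (252 and 77.5 CPM, -1.70). *Apoc1* (-3.72), an apolipoprotein gene, and *Lyz1* (-2.0), a lysozyme gene, were read almost wholly from admixed cells. All 75 and 15 *Apoc1* UMIs were in those cells, and without them *Lyz1* had 2 and 3 UMIs.

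Of the 15 highest genes 13 had intervals above 0 without admixed cells, against 6.39% of all genes, again as a description. The exceptions were *Gclc* and *Hbb-bt*, a haemoglobin gene with 0 and 155 UMIs. *Rgcc* (chr14:79288756-79301645, minus strand), which encodes a regulator of the cell cycle, was at 410 CPM (225 UMIs) in room air against 1128 CPM (1630 UMIs) in hyperoxia, a log2 ratio of 1.46 (1.26 to 1.67). Its median per 10000 UMIs was 3.01 (0 to 14.7) in room air against 9.48 (0 to 60.0) in hyperoxia, and the ratio was 1.71 (1.48 to 1.94) without admixed cells and 2.39 in AT2 cells. Its values thus moved the same way in both alveolar cell types. *Foxo3*, a forkhead factor of stress responses, was at 51.1 and 120 CPM (1.23, 0.65 to 1.86) and at 1.55 without admixed cells. *Me1*, the cytosolic malic enzyme, was at 38.3 and 94.8 CPM (1.31), *Lpin2*, a phosphatidate phosphatase, at 140 and 298 CPM (1.08), and the nuclear RNA *Neat1* at 513 and 883 CPM (0.78).

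Mitochondrially encoded genes made up 6 of the 15 highest. *mt-Nd1*, a subunit of complex I, was at 1383 and 2872 CPM (1.05, 0.94 to 1.17). Together the mitochondrial genes made up 2.95% of AT1 UMIs in room air and 4.90% in hyperoxia, and 2.94% and 5.25% without admixed cells. The same share was 3.83% and 4.82% in AT2 cells and 3.21% and 3.87% in immune cells, so it was higher in hyperoxia in every cell class compared, with airway, endothelial and stromal cells included. A high mitochondrial share also marks damaged cells in a suspension, and this was not tested. Ribosomal protein genes made up 8.72% and 10.4% of AT1 UMIs and 8.06% and 7.39% without admixed cells, so their direction turned with the admixed cells.

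**Figure D4:**
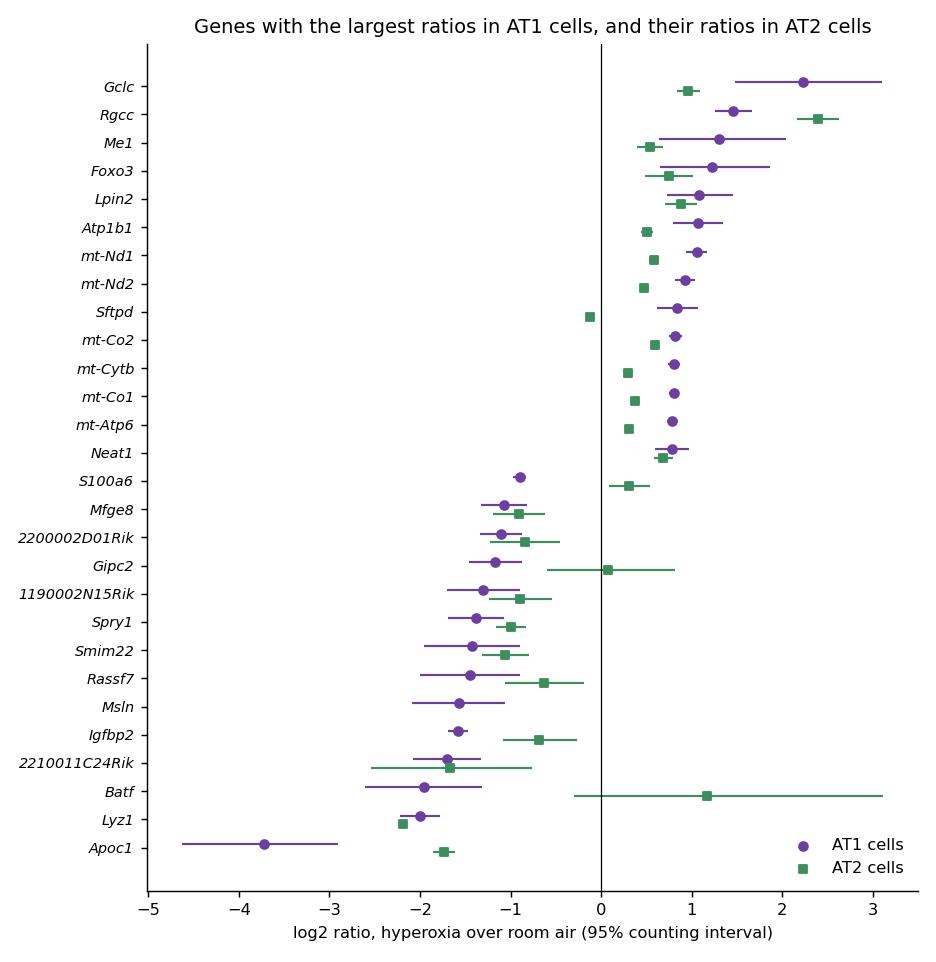
Log2 ratio of hyperoxia over room air of the highest and lowest genes reported, in AT1 cells (circles) and in AT2 cells (squares), with 95% counting intervals, where *Hbb-bt*, at 0 in AT1 cells of room air, and the AT2 value of *Msln*, at 0 in AT2 cells of room air, are left out. *Rgcc* lies above 1 and *Igfbp2* below 0 in both cell types, while *S100a6* and *Sftpd* lie on opposite sides of 0.

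Set beside each other, AT1 and AT2 cells had the same sign for many but not all of these genes, and the difference between the cell types was not tested. Of the 15 highest genes 13 had AT2 intervals above 0, and of the 15 lowest 11 had AT2 intervals below 0. Of all genes tested in AT2 cells 22.4% had an interval above 0 and 19.7% one below 0, and AT2 cells held 2433317 UMIs in room air and 10785865 in hyperoxia, more than AT1 cells, which narrows their intervals. *Igfbp2* was at 29.2 and 18.2 CPM in AT2 cells (-0.68, -1.08 to -0.27). *Timp3* was at 137 and 150 CPM in AT2 cells with an interval from -0.04 to 0.31, against 0.46 to 0.70 in AT1 cells. *Krt19* was at 23 and 39.1 CPM in AT2 cells (0.77, 0.36 to 1.19) against -0.85 in AT1 cells. AT1 cells and AT2 cells of a library came from the same pool of mice, so these values are not independent.

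Cell cycle genes were low in AT1 cells. Of 15 members 4 passed the limit, and the sum of *Mki67* and *Top2a* reached 6 UMIs in 0 of 50 room air cells, an exact interval of up to 7.11%, and in 2 of 116 hyperoxia cells. *Top2a*, the topoisomerase of dividing cells, had 3 UMIs in room air and 65 in hyperoxia. Both of those hyperoxia cells were admixed. The 15 genes summed to 131 and 515 CPM in all AT1 cells and to 126 and 108 CPM without admixed cells, so the direction turned.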

How the data were processed

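Whole lungs were dissociated and 1 droplet 3′ library was made per group. The authors deposited, for each library, raw UMI counts per gene and barcode, made with Cell Ranger (2.1.1 in the processing notes for mm10, while the file header names version 3.1.0 and the protocol text another). No deposited annotation of cells was used. From these counts, AT1 cells were gated by the rule given above, UMIs were summed per library and divided by the gate's total (CPM), and intervals were computed as exact Poisson intervals for levels, Clopper-Pearson intervals for shares and exact conditional intervals for log2 ratios, with scipy 1.17.1 under Python 3.11.15 (pandas 2.3.3, numpy 2.4.6). Genes with a mean of at least 25 CPM were compared, and 2-fold (log2 ratio of 1) was the size at which a gene was counted. A gene with 0 UMIs in a library was set at a floor of 3 UMIs. No p-value was computed, since cells are not replicates.

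The genes named were the rule genes, the members of 25 lists, the 15 highest and 15 lowest genes, and the 20 genes that most mark AT1 cells. Some genes that this rule names are counted in the totals but not reported here. The AT1 rule and the lists were chosen with earlier results of these data known. The AT2 gate mirrored the AT1 rule with the larger sum on the AT2 side. Doublets were kept in the values given first and scored by nearest neighbours with scikit-learn 1.9.0. The alternatives were other thresholds of the rule, stricter filters, doublets removed, the rule on cells thinned to 2000 UMIs, other scalings, means over single cells and other limits on level. Leaving out admixed cells, the cell with most UMIs of a gene, or shared barcodes was added after seeing the data. Gene positions came from GENCODE for GRCm38 (466 of 466 identifiers matched) and promoter sequences from RefSeq, GRCm38.p6. The ratio computation was tested on simulated data.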

Additional observations from a re-analysis of the deposited data

Results flagged for a closer look

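A total of 4 named genes had log2 ratios of hyperoxia over room air past 2-fold in opposite directions in AT1 and AT2 cells, and the difference between the cell types was not tested. *Top2a* was at 3.04 in AT1 cells and -3.30 in AT2 cells, on 3 and 65 UMIs in AT1 cells, and the mean over single AT1 cells gave -0.31. *Hmgb2*, a chromatin protein gene of dividing cells, was at 1.32 and -1.10, and at -0.10 in AT1 cells without admixture. *Msln* was at -1.57 in AT1 cells and at 2.40 in AT2 cells, where room air had 0 UMIs and the value is set against a floor of 3 UMIs. *Hba-a1*, a haemoglobin gene, was at 5.38 and -1.34, on 1 and 110 UMIs in AT1 cells, of which 1 cell held most in hyperoxia.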

How the results depend on the processing

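No paired analysis was possible because each group had 1 library, and for the same reason no replicate could be left out. AT1 cells held no shared barcode, so leaving those out changed nothing. With *Epcam* alone as the epithelial gene, AT1 cells were 0.840% of kept room air cells and 0.632% of hyperoxia cells, and without admixed cells 0.683% of hyperoxia cells. The counts past 2-fold depended on the limit on level and on the scaling. They were 498 genes higher and 296 lower with a mean of at least 10 CPM, 63 and 53 with at least 50 CPM, 1070 and 958 with at least 1 UMI in each library, and 284 and 340 for means over single cells. Without admixed cells 199 genes were lower. The median of the identity genes was -0.089 under the rule on thinned cells, -0.17 without admixed cells and -0.14 for means over single cells. That of the ligands was -0.23, -0.24 and -0.29. Values that were at least 2-fold, or medians whose spread over genes lay clear of 0, were counted as reversed when they changed sign. Under the rule on thinned cells these were 0.15 for *Lyz1*, -0.58 for *Gsta4*, -0.79 for *Gstm1*, -0.62 for *Mt1*, -0.83 for *Ifitm3* and -0.27 for *Ier2*. Without admixed cells they were -0.068 for *Gclc*, -0.12 for *Ifitm3* and -0.10 for *Hmgb2*. Means over single cells reversed *Top2a* (-0.31) and the junction median (0.0048), the rule with a sum of at least 3 times the AT2 sum reversed *Lyz1* (4.21), and the rule with a sum of at least 4 reversed *Mgp* (-0.77). Medians of other lists also changed sign without admixed cells, from 0.18 to -0.14 for NRF2, 0.09 to -0.31 for the dissociation response, and -0.13 to 0.06 for basement membrane. On 5 members or fewer, which the counts below leave out, airway markers went from -0.24 to 0.05, inflammation from -0.63 to 0.71 and the cell cycle from 2.18 to -0.10. The summed erythroid, airway and cell cycle levels and the ribosomal share, also not counted, changed direction as well. The causes were not tested. Counting each result once per setting, the main results stayed within their stated spread or within 1.5 times in 81 cases and moved in 18, all given above, while the others stayed in 784, moved in 114 and reversed in 13. Among those that stayed or moved, 26 smaller values also changed sign, none of them a main result. Depth limited values of single cells, of which the shallowest carried 737 UMIs.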

Other observations

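The sex-linked genes differed between the libraries. *Xist*, the RNA of the inactive X chromosome, had a UMI in 4 of 50 room air AT1 cells and 24 of 116 hyperoxia AT1 cells, and in 16.6% and 27.2% of all kept cells. Its level in AT1 cells was 51.1 and 220 CPM. Y-linked genes had a UMI in 60.4% and 56.8% of all kept cells. Each pool of 8 mice thus held cells of both sexes, in shares that cannot be told apart from the oxygen groups.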
